A study of Homo sapiens with 15 samples.

Results

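The regions described here are stretches of open chromatin that came up in only 1 of 15 peak lists from a human cell line. Peaks on chromosomes 1 to 22 were merged into 1 region wherever they overlapped by at least 1 bp, and a merged region was taken when exactly 1 of the 15 lists held a peak in it. This gave 22624 single-list regions among 118109 merged regions (19.2%), and they accounted for 2.17% of the 1042240 peaks. All 22624 were used, with no filter on strength. They were chosen by the presence or absence of a peak, which is itself measured, so their number, width and strength are given as a description, and tests are restricted to their distance from regions in all 15 lists, which was not itself a criterion. That distance is not free of the choice, since a peak that touches such a region is merged into it and since the classes compared are also set by presence in the lists.

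Chromatin that is bound by transcription factors, such as promoters and enhancers, is more accessible to nucleases than chromatin packed in nucleosomes. DNase-seq reads that accessibility by digesting nuclei lightly and sequencing the cut fragments, and a peak caller then lists the places where fragments pile up above the local background. Whether a weakly open place enters such a list depends on the fragment pileup, the local background and the depth of the library, while strongly open places enter nearly any list.

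The cells were K562, a human erythroleukemia line with active globin genes, taken from ATCC stock and transduced with lentivirus for stable expression of dCas9 or dCas9-KRAB. dCas9 is a Cas9 made unable to cut, which a guide RNA (gRNA) leads to its DNA target, and KRAB is a domain found in many zinc finger repressors that brings in silencing enzymes such as histone methyltransferases. The 5 groups had 3 libraries each: 2 groups carried dCas9 with either gRNA Cr4 or gRNA Cr10, another 2 carried dCas9-KRAB with either of these, and the last carried dCas9-KRAB alone, with no gRNA. Both gRNAs were aimed at HS2, an enhancer in the locus control region of the beta-globin genes, and the study asked about effects on and off that target.

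All groups received polybrene at 4 µg/mL with the virus and puromycin at 1 µg/mL from about 96 h after transduction, and a group of dCas9 alone is not among the libraries. The labels' gRNA target field reads HS2 even for dCas9-KRAB alone, so groups followed the titles and the design text. Transductions were stated to be in triplicate, but nothing said that the numbered libraries of a group were separate cultures, so p-values measure the spread between these libraries, which may be technical. The lists held between 51784 and 92289 peaks on these chromosomes, and the number of sequenced fragments is not given in the sources used here.

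Single-list regions formed the largest class after the regions in all 15 lists, of which there were 37968. Just outside the limit, 10120 regions had a peak in exactly 2 lists. The counts fell further to 2868 regions in 9 lists before rising again towards 15. The strength of a peak was read as its percentile of −log10 p within its own list, where 0 is the weakest peak. The median percentile was 6.33 for single-list regions (quartiles 2.43 and 13.2), 9.87 for peaks of regions in 2 lists and 70.7 for peaks of regions in all 15 lists. The step from 1 to 2 lists was therefore small next to the range of the whole spectrum, and the quartiles of the single-list and the 2-list class overlapped.

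**Figure D1:**
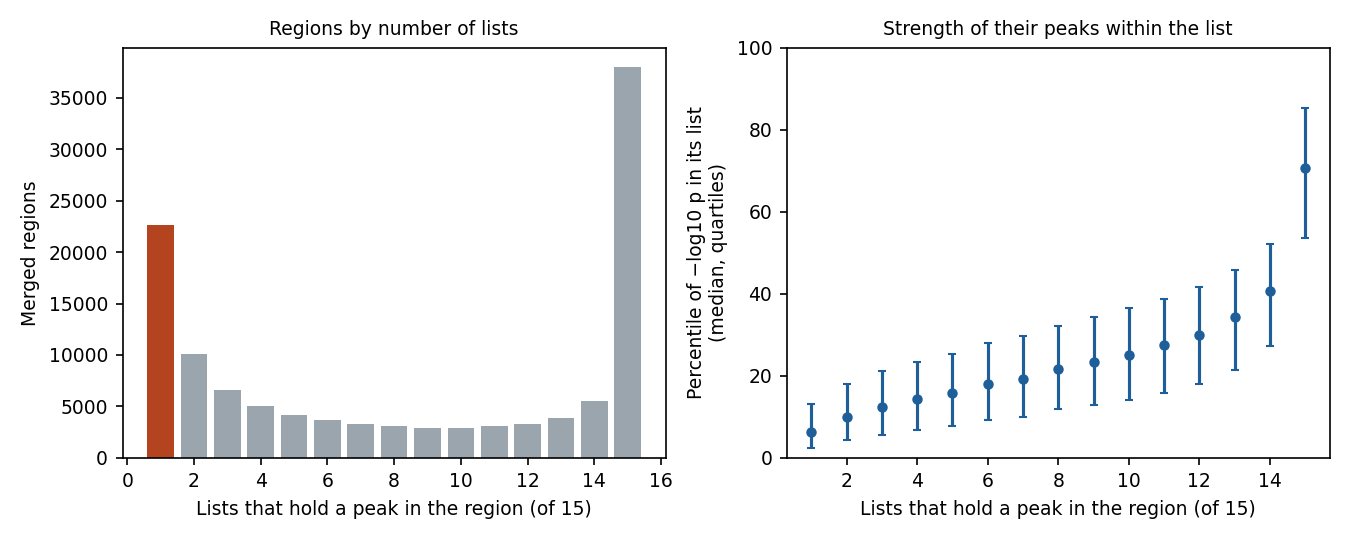
Left, number of merged regions (y axis) by the number of lists that held a peak in them (x axis, 1 to 15), with the single-list class in red. Right, percentile of −log10 p of the peaks within their own list (y axis, 0 is the weakest), as median (point) and quartiles (bars) for each class. Single-list regions (22624) were the second most frequent class, with the lowest median percentile, 6.33.

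The libraries held very unequal numbers of these regions, and the longest lists held most of them. dCas9 with Cr10 replicate 3, whose list was the longest with 92289 peaks, alone held 6124, which is 27.1% of all. The 4 longest lists together held 16400 (72.5%), against 33.5% of all peaks.

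In dCas9-KRAB without a gRNA, replicates 1, 2 and 3 held 683, 3564 and 287 single-list regions. Replicate 2, with 86056 peaks, was far above the other two, which had 61746 and 59450 peaks. In dCas9 with Cr4 the counts were 1529, 301 and 3136, for lists of 66678, 68841 and 84580 peaks. Replicate 2 of this group had a slightly longer list than replicate 1 and yet fewer single-list regions, so list length did not set the order alone.

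In dCas9 with Cr10 the counts were 137, 349 and 6124, for lists of 51784, 65666 and 92289 peaks. In dCas9-KRAB with Cr4 they were 1116, 121 and 3576, for lists of 65109, 60409 and 86503 peaks. In dCas9-KRAB with Cr10 they were 691, 156 and 854, for lists of 58964, 65970 and 68195 peaks. The ranges of all 5 groups overlapped, and the lowest library of each had fewer single-list regions than the highest library of every other.

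The group means (± SD, n = 3 each) were 1511 ± 1789 without a gRNA. With dCas9 they were 1655 ± 1422 for Cr4 and 2203 ± 3397 for Cr10, and with dCas9-KRAB they were 1604 ± 1779 for Cr4 and 567 ± 365 for Cr10. The longest list of the last group had 68195 peaks, fewer than the longest list of any other group. The 6 libraries that had both dCas9-KRAB and a gRNA held 6514 single-list regions (28.8%) and 38.9% of all peaks. By replicate number, the libraries numbered 3 held 13977 (61.8%), those numbered 2 held 4491 (19.9%) and those numbered 1 held 4156 (18.4%). These compare with 37.5%, 33.3% and 29.2% of all peaks.

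The order of the libraries turned over when all lists were given the same length. Each list was shortened to its 51784 strongest peaks by −log10 p, the length of the shortest list, and the merge was repeated. It gave 71908 regions, of which 8081 (11.2%) were in a single list. dCas9 with Cr10 replicate 1, which had 137 single-list regions in the deposited lists, now had the most, 1315. dCas9 with Cr10 replicate 3 went from 6124 to 252, and the other long lists (no gRNA replicate 2, dCas9 with Cr4 replicate 3 and dCas9-KRAB with Cr4 replicate 3) came to 153, 170 and 136, the lowest counts of all.

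The members were also largely different ones. Only 591 of the 22624 single-list regions (2.61%) still had their peak in the shortened lists, and the other 22033 were dropped. The cut removes the weakest peaks, where most single-list regions stood, and takes none from the shortest list. Part of this change is therefore built into the cut. The peaks of the 8081 equal-length single-list regions lay in regions that had a median of 5 lists before shortening. Which regions and libraries carry the single-list class therefore changed with where each list stopped. Across all alternatives, leaving out each library included, the number of such regions ran from 8081 to 23296.

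**Figure D2:**
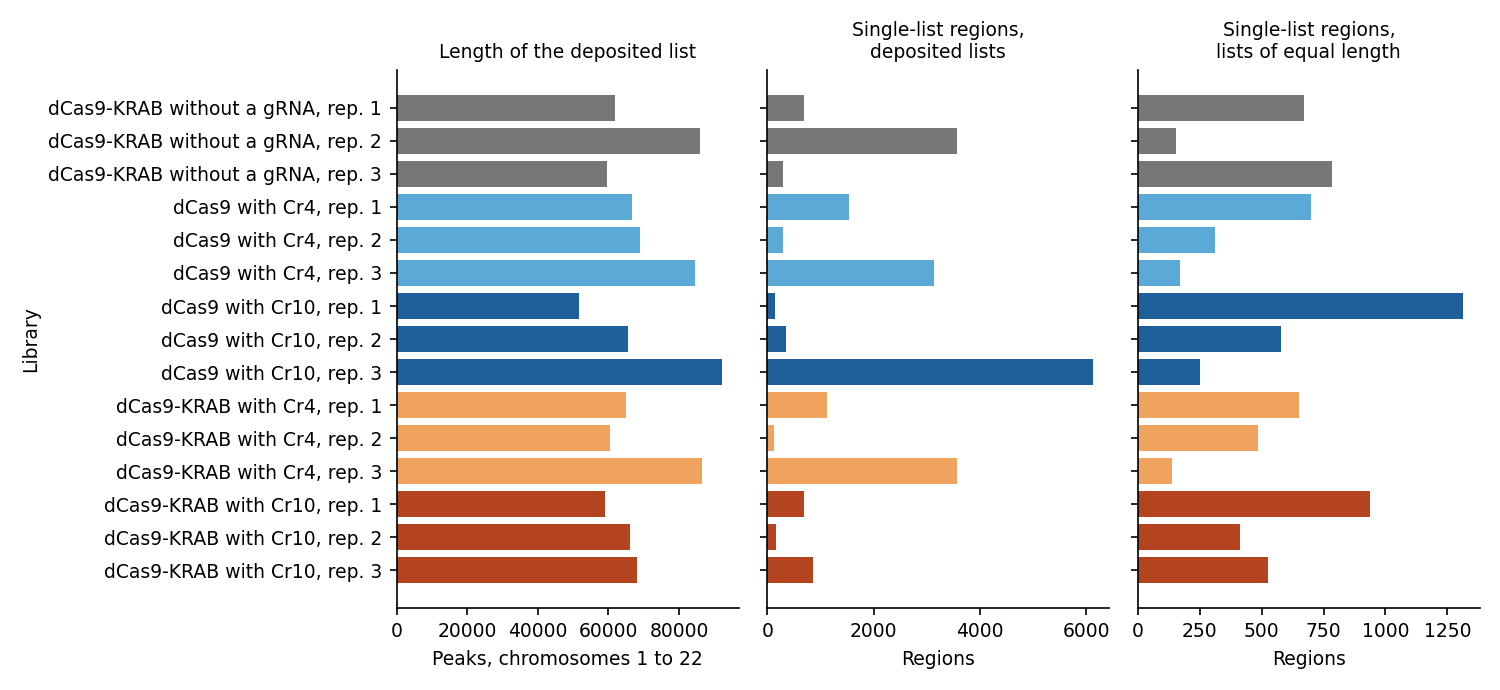
For each of the 15 libraries (y axis, coloured by group), bars give the number of peaks in the deposited list (left), the single-list regions it holds (middle) and the single-list regions after all lists were shortened to 51784 peaks (right), with x axes in peaks or regions. The longest list, dCas9 with Cr10 replicate 3, holds 6124 in the middle panel and 252 in the right one, and the shortest, dCas9 with Cr10 replicate 1, holds 137 and 1315.

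Single-list regions were narrow and weak. Their median width was 212 bp (quartiles 201 and 234), and 5557 of them (24.6%) were exactly 200 bp wide, the smallest width among them. The share at 200 bp fell to 18.6% of peaks in 2-list regions and 0.56% of peaks in regions of all 15 lists, whose median peak width was 376 bp. Only 122 single-list regions (0.539%) were wider than 400 bp, and the widest had 646 bp. By library the share at 200 bp ran from 19.8% in dCas9 with Cr10 replicate 3 to 58.3% in dCas9-KRAB with Cr10 replicate 2.

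The authors' fold enrichment at the summit had a median of 3.49 (range 1.62 to 8.57), against 8.26 for peaks in regions of all 15 lists. The summit pileup, the number of fragments stacked at the highest point, was worked out from the fold and the −log10 p of each peak. It ran from 11 to 169 with a median of 26 in single-list regions, and had a median of 73 in regions of all 15 lists. Between libraries the median pileup of single-list regions lay between 16 (dCas9-KRAB with Cr4 replicate 2) and 29 (dCas9 with Cr10 replicate 3). In the 4 longest lists it was 25 to 29 and in the other 11 it was 16 to 21, so a single-list region of a long list was typically carried by more fragments than one of a short list. Pileups were not scaled for depth. The median fold was not higher in the long lists, at 3.27 to 3.54 in the 4 longest and 3.54 to 4.68 in the other 11.

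Most members stood at the bottom of their own list. In all, 65.1% were among the weakest 10% of their list, 88.5% were among the weakest 20%, and only 4 were above its median. These 4 were chr16:3055978-3056205, chr11:3859071-3859290 and chr6:20223223-20223666, all from dCas9 with Cr10 replicate 3, and chr9:91893980-91894265 from dCas9 with Cr4 replicate 1 (coordinates on hg19, and singled out after their values were seen). Their percentiles were 60.6, 53.6, 50.4 and 55.3. Among the 100 strongest single-list regions by −log10 p, 66 came from dCas9 with Cr10 replicate 3 and 89 from the 4 longest lists.

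The same 2 columns give the local background against which each summit was judged, which was divided here by the lowest background in that library's list, its floor. The floor was 5.09 to 5.81 in the 4 longest lists and 2.21 to 3.55 in the other 11. In 24.6% of single-list regions the background was within 1% of the floor, and in 1577 (6.97%) it was more than 3 times the floor. The median was 1.27 times the floor in single-list regions, 1.31 in 2-list regions and 2.32 in regions of all 15 lists.

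A background above 3 times the floor was found in 34.5% of the single-list regions of chromosome 22, 11.8% of those of chromosome 9 and 11.5% of those of chromosome 19, against 6.97% over all chromosomes. On chr22 between 19 and 24 Mb, an interval that by recalled position holds BCR, which is amplified in K562 as part of the BCR-ABL1 fusion, 208 of 958 regions (21.7%) were single-list. Their median background was 4.83 times the floor and their median pileup 53, against 1.24 times the floor in the 346 single-list regions elsewhere on that chromosome. Of the 208, 174 (83.7%) had a background above 3 times the floor, and they made up 11.03% of all such single-list regions, so most of these lay elsewhere. Copy number was not measured in these files, and its part in this pattern was not tested.

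Single-list regions were spread widely around the constitutive sites, as the regions in all 15 lists are called here. The distance, edge to edge, to the nearest region in all 15 lists had a median of 14.6 kb (quartiles 6.53 and 34.3 kb), and 39.7% were beyond 20 kb, 1640 (7.25%) beyond 100 kb and 51 beyond 1 Mb. Within 5 kb lay 18.3% of them, compared with 24.4% of the 20028 regions in 5 to 10 lists. Beyond 100 kb the share was not larger than in that class, at 7.25% against 8.20%. A small part sat directly beside a constitutive site: 771 (3.41%) within 200 bp and 1361 (6.02%) within 500 bp. The constitutive region next to those 1361 had a median width of 627 bp, against 549 bp for the constitutive region nearest to the other single-list regions. Any region shared by at least 2 lists was a median of 5.65 kb away.

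By median distance within libraries, the single-list regions were mostly farther from constitutive sites than the same library's peaks in regions of 5 to 10 lists. For dCas9-KRAB without a gRNA the median distances were 14.5, 15.7 and 26.2 kb for single-list regions and 11.4, 13.3 and 16.1 kb for the comparison peaks, in replicates 1, 2 and 3. For dCas9 with Cr4 they were 15.8, 16.7 and 17.0 kb against 12.7, 14.2 and 13.3 kb. In both groups every library had the larger value for its single-list regions.

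For dCas9 with Cr10 the distances were 25.6, 16.2 and 11.6 kb against 22.6, 11.1 and 12.8 kb, so replicate 3 was the exception, with its single-list regions nearer. For dCas9-KRAB with Cr4 they were 12.4, 19.2 and 15.3 kb against 10.9, 13.7 and 12.98 kb. For dCas9-KRAB with Cr10 they were 12.97, 17.3 and 15.97 kb against 12.04, 11.8 and 14.1 kb. By this median, single-list regions were farther in 14 of 15 libraries, and the ranges of the single-list and comparison values overlapped between libraries.

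On the log2 scale the difference was 0.30 ± 0.21 (SD, n = 15 libraries), or 1.23 times the distance. An exact two-sided sign-flip permutation test over the 32768 arrangements gave p = 0.000183, and p = 0.000366 after Benjamini-Hochberg adjustment over the 2 tests of distance. The test takes the 15 differences as independent, which they are not. A comparison region counts in each library that holds it, and all libraries share the same constitutive sites. The p may therefore be too small. The background against which a peak is judged also changed with this distance, as given with the step near 5 kb, and its part in the difference was not tested. The share of regions beyond 10 kb was 8.20 percentage points higher in single-list regions (exact permutation p = 0.000122). Beyond 100 kb the libraries had no common direction. The shares were 14.3% against 10.4% in no gRNA replicate 3, and 5.14% against 7.88% in dCas9 with Cr10 replicate 3. The log2 difference of the medians was not past the threshold of 0.05 in lists of equal length by −log10 p, at 0.075 (p = 0.333, exact permutation test, higher in 10 of 15 libraries), and was −0.015 (p = 0.917, exact permutation test) among peaks with a −log10 q of at least 10, a limit chosen after seeing the data. In lists of equal length by fold it was 0.17 (p = 0.0842, exact permutation test).

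**Figure D3:**
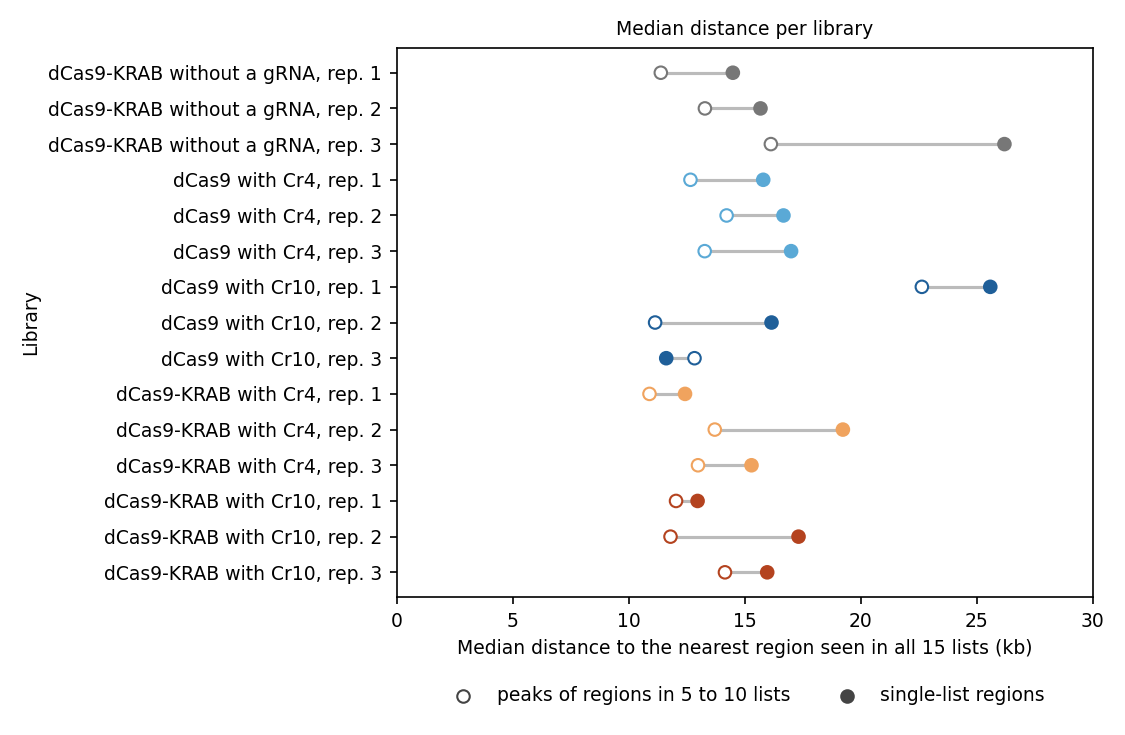
Median distance to the nearest region in all 15 lists (x axis, kb) for each library (y axis, coloured by group), with filled points for single-list regions and open points for the same library's peaks in regions of 5 to 10 lists. The filled point lies to the right in 14 of 15 libraries; dCas9 with Cr10 replicate 3 is the exception, at 11.6 against 12.8 kb.

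The distances did not fall off smoothly: there was a dip at 2 to 4 kb and a step near 5 kb, seen on plotting the distances and described here without a test. Per 1000 single-list regions, 60.2 lay within 0.5 kb of a constitutive site, 9.33 lay at 3 to 3.5 kb and 10.9 at 4 to 4.5 kb. The number then rose to 18.3 at 4.5 to 5 kb and 21.6 at 5 to 5.5 kb before it declined slowly. In all, 1977 single-list regions lay at 5 to 7 kb and 943 at 2 to 4 kb, a ratio of 2.10.

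Among 4 classes the step was steeper the fewer lists held a region. The same ratio was 1.74 for regions in 2 lists, 1.33 for regions in 5 to 10 lists and 0.991 for regions in 11 to 14 lists. All 15 libraries had more single-list regions at 5 to 7 kb than at 2 to 4 kb. In the 8 libraries with at least 20 of them at 2 to 4 kb the ratio ran from 1.52 (dCas9 with Cr10 replicate 3) to 3.31 (dCas9-KRAB with Cr10 replicate 1). The ratio was 1.23 in lists of equal length by −log10 p and 1.56 in lists of equal length by fold. It was 1.22 among peaks with a −log10 q of at least 10.

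The implied background changed at the same distance. Its median in single-list regions was 2.23 times the floor at 2 to 4 kb and 1.34 times the floor at 5 to 7 kb, and it was lower at 5 to 7 kb in all 15 libraries. Peaks of regions in 5 to 10 lists showed the same fall, from 2.39 to 1.45 times the floor. The part of the background in the step was not tested.

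**Figure D4:**
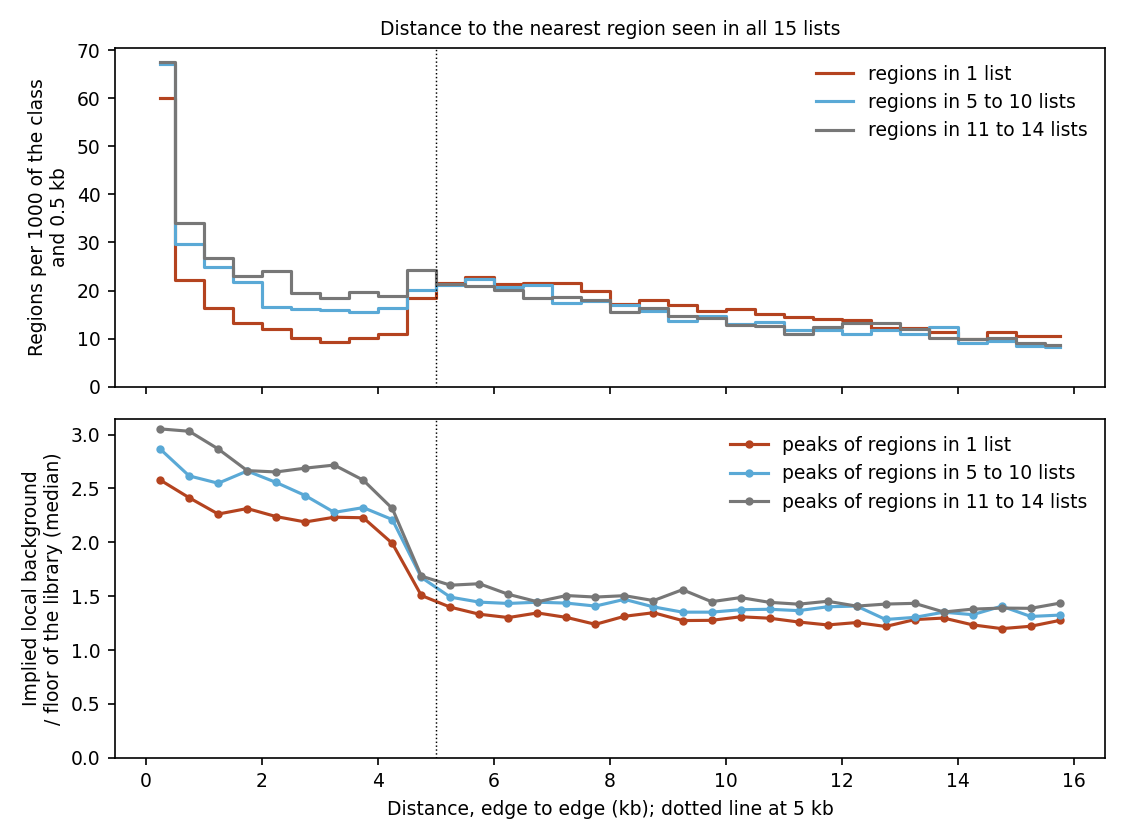
Top, regions per 1000 of their class in each 0.5 kb of distance to the nearest region in all 15 lists (x axis, kb, to 16 kb), for regions in 1 list, in 5 to 10 lists and in 11 to 14 lists. Bottom, median implied local background over the library's floor in the same bins. Single-list regions dip to 9.33 per 1000 at 3 to 3.5 kb and reach 21.6 at 5 to 5.5 kb (dotted line at 5 kb), where their background falls from 2.23 (2 to 4 kb) to 1.34 (5 to 7 kb) times the floor.

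Whether bringing dCas9-KRAB to a target moved the scattered sites was asked by setting the 6 libraries that had both dCas9-KRAB and a gRNA against the other 9. Their median distances for single-list regions ran from 12.4 to 19.2 kb (median 15.6 kb) and from 11.6 to 26.2 kb (median 16.2 kb), so the first range lay inside the second. The difference of the log2 means was −0.16, or 0.896 times the distance, with p = 0.380 in an exact two-sided permutation test over 5005 arrangements (adjusted p = 0.380 over the 2 tests). Within replicate numbers 1, 2 and 3 the difference was −0.51, 0.18 and −0.15, so its direction was not the same in all 3. The p misses the threshold and does not show that the groups are alike. Nor can this comparison decide whether dCas9-KRAB with a gRNA opened sites, since a site opened in more than 1 library is outside the class.

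The group means of the median distance (± SD, n = 3 each) were 18.8 ± 6.44 kb without a gRNA. With dCas9 they were 16.5 ± 0.621 kb for Cr4 and 17.8 ± 7.13 kb for Cr10, and with dCas9-KRAB they were 15.6 ± 3.42 kb for Cr4 and 15.4 ± 2.23 kb for Cr10. Across the 7 comparisons of 3 against 3 libraries the exact permutation p was 0.6 to 1 and the adjusted p was 1 in each. An exact permutation test of that size cannot go below p = 0.1.

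Along the chromosomes the single-list share of regions ran from 15.3% on chromosome 14 to 24.5% on chromosome 21, with 23.4% on chromosome 7 (1853 of 7924 regions). Chromosome 19, where 42.5% of regions were in all 15 lists, the largest share of the 22, had 16.1%. To set list length aside, each chromosome's share of a library's single-list regions was divided by its share of that library's peaks. Chromosome 7 was above 1 in 15 of 15 libraries (1.00 to 2.16, median 1.32) and chromosome 21 in 14 of 15 (median 1.60), while chromosome 11 was below 1 in 15 of 15 (median 0.766). The picture depended on the peaks compared with. Set against the share of peaks in regions of 5 to 10 lists, chromosomes 7 and 21 were higher in 14 of 15 libraries each and chromosome 11 in 2. Chromosome 16 was also higher in 14, though above 1 in only 7 by the ratio to all peaks. No test was made, since presence in the lists is what chose the regions, and the 22 shares of a library are not independent.

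**Figure D5:**
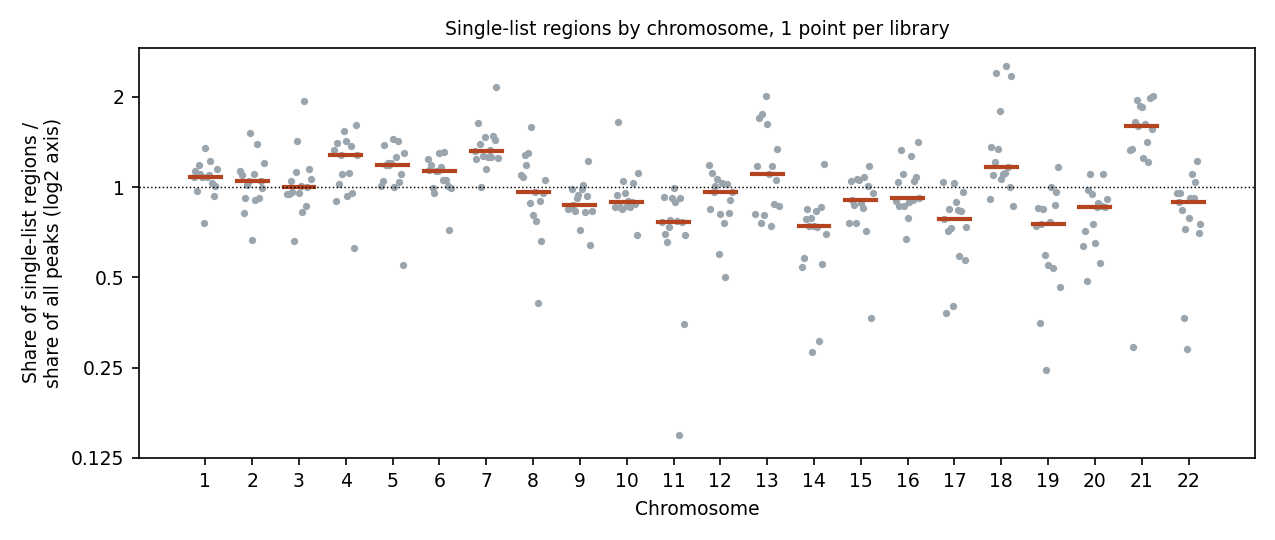
Share of a library's single-list regions that lie on a chromosome divided by the share of its peaks there (y axis, log2 scale), for chromosomes 1 to 22 (x axis), with 1 grey point per library and a red bar at the median. Chromosome 7 (median 1.32) has every library above the dotted line at 1, and chromosome 11 (median 0.766) has every library below it.

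At a finer scale, 424 windows of 5 Mb held at least 100 merged regions, and their single-list share ran from 8.77% (chromosome 10, 85 to 90 Mb) to 47.1% (chromosome 13, 90 to 95 Mb), with a median of 18.8%. The next highest shares were 33.01% on chromosome 18 at 25 to 30 Mb and 32.4% on chromosome 12 at 60 to 65 Mb. The chromosome 13 window therefore stood well apart from the next. Of its 121 regions 57 were single-list and 10 were in all 15 lists. The 57 came from 14 libraries, with 21 from no gRNA replicate 2 and 9 from dCas9 with Cr10 replicate 3.

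In that window the single-list regions had a median background of 2.07 times the floor, against 1.00 for single-list regions on the rest of chromosome 13. The other peaks of the window had 2.73 times the floor. The single-list regions also lay a median of 124 kb from the nearest constitutive site. The window was thus poor in constitutive sites and raised in background, and the part of either in the high share was not tested.

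Single-list regions of different libraries lay beside each other in places. There were 826 pairs of neighbouring single-list regions at most 1 kb apart, of which 699 (84.6%) came from 2 different libraries. The libraries' shares of all single-list regions alone would give 84.7% for any 2 of them, so the share among neighbours is close to that background. In all, 1606 single-list regions (7.10%) had another within 1 kb. Peaks of different libraries that lay close together without overlapping were thus counted as separate single-list regions. When peaks up to 150 bp apart were merged as well, 20755 single-list regions were left.

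The strongest single-list region of each library was not typical of the class. In 12 of the 15 libraries it lay within 5 kb of a constitutive site, against 18.3% of all single-list regions, and in 7 at least 1 other list had a peak within 1 kb. Their percentiles in the own list ran from 21.2 to 60.6 (median 44.8), against a median of 6.33 in the class, and only 2 of the 15 stood above the middle of their list. They fell into shoulders of open clusters, sites a few kb from a constitutive site, and isolated sites.

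Shoulders had all 14 other lists within 1 kb. In no gRNA replicate 1 the strongest was chr19:7934088-7934327, with a pileup of 95 over a background of 28.3 and a constitutive site 0.118 kb away. In dCas9 with Cr4 replicate 2 it was chr19:10531741-10531950 (pileup 81 over 23.5, 0.463 kb away), and in dCas9-KRAB with Cr4 replicate 1 it was chr19:10529854-10530115 (pileup 95 over 30.3, 0.535 kb away). These last regions of 2 different libraries lie less than 2 kb from each other. In dCas9 with Cr4 replicate 3 it was chr6:64284269-64284483 (pileup 65 over 14.8, 0.529 kb away).

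At 1 to 4 kb from a constitutive site lay the strongest of 8 further libraries. The one with the highest −log10 p of all single-list regions, 34.2, was chr16:3055978-3056205 in dCas9 with Cr10 replicate 3, with a pileup of 119 over a background of 30.2 and 5 other lists within 1 kb. In no gRNA replicate 2 it was chr1:158091523-158091751 (−log10 p 24.7, 3.02 kb away) and in dCas9-KRAB with Cr10 replicate 1 chr19:17012687-17012940 (22.1, 3.99 kb away). Neither had another list within 1 kb.

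The other five of these 8 were chr2:46526991-46527218 in dCas9 with Cr10 replicate 1 (−log10 p 18.0), chr4:100482364-100482563 in dCas9 with Cr10 replicate 2 (15.5), chr17:25907595-25907800 in dCas9-KRAB with Cr4 replicate 2 (15.5), chr19:9906921-9907137 in dCas9-KRAB with Cr4 replicate 3 (22.02) and chr3:14248426-14248625 in dCas9-KRAB with Cr10 replicate 3 (16.6). Their pileups of 40 to 81 stood over backgrounds of 8.20 to 22.

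Isolated sites were the strongest in 3 libraries, and no other list had a peak within 1 kb of them. chr9:91893980-91894265 in dCas9 with Cr4 replicate 1 had a −log10 p of 26.3, a pileup of 38 over the floor background of 3.55 and the highest fold of all single-list regions, 8.57, at 31.2 kb from a constitutive site. chr18:57797602-57797845 in no gRNA replicate 3 had a −log10 p of 18.6 and a pileup of 25 over the floor of 2.21, at 76.1 kb. chr20:17635672-17635871 in dCas9-KRAB with Cr10 replicate 2 had 12.6 and a pileup of 24, at 25.9 kb. The background was at the floor in the first and second and 1.31 times the floor in the third.

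The 5 widest single-list regions were weak for their width. They were chr19:16387560-16388205 (646 bp, dCas9-KRAB with Cr4 replicate 3), chr11:59705842-59706469 (628 bp), chr7:64790597-64791202 (606 bp) and chr1:226286228-226286787 (560 bp), all of the last 3 from dCas9 with Cr10 replicate 3, and chr6:7282447-7283000 (554 bp, no gRNA replicate 2). Their pileups were 26 to 35 and their percentiles 1.57 to 13.5.

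The 5 farthest from a constitutive site lay on chromosomes 3 and 4. chr4:32194088-32194288 (dCas9-KRAB with Cr4 replicate 3) was 4052 kb away and chr4:65405063-65405281 (dCas9-KRAB with Cr10 replicate 3) 2788 kb away. chr3:163216648-163216861, chr3:163208089-163208322 and chr3:943943-944164, all from dCas9-KRAB with Cr4 replicate 3, were 2277, 2268 and 2224 kb away. All 5 stood at the floor background with pileups of 22 to 27, and the nearest region of any other list was 170 to 442 kb away in each case.

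Around the gRNA target, single-list regions were of the usual strength of the class. HS2 itself, taken as the region chr11:5301766-5302230 that covers its recalled hg19 position, was in all 15 lists, with pileups of 44 to 160 (median 99). Within 200 kb of it lay 37 merged regions, of which 15 were in all lists and 5 (13.5%) were single-list, compared with 16.8% of regions on chromosome 11 and 19.2% on all chromosomes. With 37 regions no difference can be read from these shares. None of the 5 came from a library with dCas9-KRAB and a gRNA; these 6 libraries held 28.8% of all single-list regions, and 5 regions are too few to compare.

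chr11:5319267-5319469 (dCas9 with Cr4 replicate 3) was the nearest to HS2, at 17.0 kb, and a 2-list region lay 0.102 kb from it. chr11:5199627-5199826 (dCas9 with Cr10 replicate 3) lay at 102 kb. chr11:5474063-5474268 (dCas9 with Cr10 replicate 3) and chr11:5474627-5474967 (no gRNA replicate 2) were 0.358 kb apart, and chr11:5487930-5488141 (no gRNA replicate 2) was the farthest of the 5. Their pileups were 23 to 28 and their percentiles 5.64 to 11.1, which is inside the quartiles of the class.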

How the data were processed

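The 15 libraries of nuclease-digested K562 nuclei were each deposited as 1 narrowPeak list on hg19, with no pooled list among those used. Per the submitters' processing notes, CASAVA 1.3, BWA and bedtools were used. Peak names carry the MACS prefix, per the file contents. The sources used here do not give the caller's version or threshold. The fold column is a ratio deposited by the authors, the summit's enrichment over local background. The p-value and the q-value of a peak stand as −log10 in columns deposited by the authors. The labels record no scaling of one library to another.

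Peaks on chromosomes 1 to 22 were merged by at least 1 bp overlap, and distances were taken edge to edge. The summit pileup k and background λ came from fold = (k + 1)/(λ + 1) with p taken from the Poisson distribution at mean λ, and a whole k met every peak's −log10 p within 0.01 (largest error 0.000143). Distances were compared over libraries on the log2 of the median by exact permutation, two-sided. These steps were checked on simulated data. Named are the strongest region of each library, the 5 widest, the 5 farthest and those within 200 kb of HS2. The members and lists were chosen with earlier results of these data known. GC content, sequences and genes, which need hg19 references, were not analysed here. Alternatives covered merging, list length, q limits, chromosome X, reference and comparison classes, a block for the replicate number, and each library left out. Python 3.11.15, numpy 2.4.6, pandas 2.3.3, scipy 1.17.1 and matplotlib 3.10.9 were used.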

Additional observations from a re-analysis of the deposited data

Results flagged for a closer look

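In dCas9 with Cr10 replicate 3, 26.1% of single-list regions lay within 5 kb of a region in all 15 lists. Among the 9 libraries without dCas9-KRAB and a gRNA this value stood apart from the others, which had 8.36% to 17.0%. The same library has the longest list and 27.1% of all single-list regions. In total 14 such sets of values were examined, and chance singles out a sample in about 1 of 20 sets.

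Chromosome X, left out by the choice of chromosomes, held 404 single-list regions among 2883 merged regions (14.01%), compared with 19.2% on chromosomes 1 to 22.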

How the results depend on the processing

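The number of single-list regions, 22624, was 8081 and 10303 in lists of equal length by −log10 p and by fold, and 10213 at a −log10 q of at least 10, a limit added after seeing the data. It was 20755 to 23028 under the other settings and 21179 to 23296 when each library was left out. The share held by dCas9 with Cr10 replicate 3 was 3.12% and 3.54% in lists of equal length and 41.4% at the stricter q limit. Of the strongest region in each library, 14 of 15 kept their peak at equal length by −log10 p and 6 of 15 at equal length by fold. All 15 kept it at either q limit. Such cuts only remove peaks, so a single-list region that keeps its peak stays in a single list. These counts therefore do not check that status. When peaks up to 150 bp apart were merged, which could change it, 14 of 15 were still in a single list.

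The larger median distance of single-list regions than of regions in 5 to 10 lists, 0.30 on the log2 scale, was 0.075 (p = 0.333, exact permutation test) and 0.17 (p = 0.0842, exact permutation test) in lists of equal length by −log10 p and by fold, and −0.015 (p = 0.917, exact permutation test) at a −log10 q of at least 10. The cause was not tested. It kept its direction and its side of the threshold in the other 8 alternatives and without any 1 of the 15 libraries, at 0.26 to 0.32 (exact permutation p up to 0.000488).

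The difference between dCas9-KRAB with a gRNA and the rest, −0.16, was past the threshold under none of the 17 alternatives (p of 0.351 or more, exact permutation tests). Of these alternatives, 7 set 3 libraries against 3, where no exact permutation test can reach the threshold. Their outcome was fixed in advance, and only the other alternatives could have passed. Without any 1 library the difference was −0.24 to −0.097 (p 0.130 to 0.626, exact permutation tests). Its sign turned for the share beyond 5 kb, 1.20 percentage points (p = 0.660, exact permutation test). Cr4 against Cr10 under dCas9-KRAB, 0.0090 (p = 1, exact permutation test), lies within the first group, so its sign cannot be set against this difference. With the replicate block the difference was −0.16 (p = 0.416, exact permutation test). Across 57517 regions in 2 to 14 lists, deviations of presence correlated at −0.116 to 0.228 (median 0.031) in 30 same-numbered pairs, 11 of them over 0.1, and at a median of −0.042 in 60 other pairs, 3 of them over 0.1. Same-numbered libraries were thus somewhat more alike, but not in every pair, so the numbers were not taken to pair the libraries.

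The GC comparison was not run, since no hg19 genome was used here. List length, which depth can set, limits what a count of single-list regions can show, and the number of sequenced fragments is unknown. The background floor was higher in the 4 longest lists than in the other 11, and its part in the counts was not tested. With 3 libraries per group no exact permutation test between groups can go below p = 0.1.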
